A study of Rattus norvegicus with 6 samples.

Results

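Messenger RNA of 5 core circadian clock genes was followed in rat rostral ventromedial medulla (RVM), a part of the brainstem that sends fibres to the spinal cord and trigeminal nuclei and can facilitate or inhibit pain there. The genes were Bmal1 (ENSRNOG00000014448, also called Arntl), Per1 (ENSRNOG00000007387), Per2 (ENSRNOG00000020254), Nr1d1 (ENSRNOG00000009329) and Dbp (ENSRNOG00000021027). They were taken by Ensembl identifier from a table of 22976 genes, and all 5 identifiers were present. The 3 tested libraries came from rats given 50 µL of CFA (Freund's complete adjuvant, which inflames the tissue it is injected into) in the temporomandibular joint, the jaw joint, on both sides. The 3 libraries they were set against came from rats given 50 µL of saline into the same joints, and all tissue was taken on day 3. The labels do not state strain, sex, age or the time of day at which tissue was taken, nor whether each library is a separate animal. The p-values therefore measure only how these libraries vary, and that variation may be technical.

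The mammalian clock is a feedback loop of transcription that runs in most cells, with a pacemaker in the suprachiasmatic nucleus of the hypothalamus and further clocks in other brain regions. BMAL1 and its partner CLOCK bind E-box elements and drive the Per genes, Nr1d1 and Dbp. PER proteins, with CRY proteins, then repress BMAL1 and CLOCK, and REV-ERB alpha, the product of Nr1d1, represses Bmal1 through ROR elements, while DBP carries the rhythm to target genes through D-boxes. In tissues with a running clock, Bmal1 RNA peaks at about the opposite time of day from Nr1d1 and Dbp RNA.

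These elements were looked for in the 250 bases before the start sites of the 5 genes in RefSeq's promoter table (rat build GRCr8), which holds 6 such windows, 2 of them for Nr1d1. The letters searched on both strands were CACGTG (E-box), CACGTT (a variant E-box, here E-prime box), TTATGTAA (D-box), GTAGGTNA (ROR element) and TGACGTCA (cAMP response element, CRE). Windows of the same length with at least 1 match made up 5.59%, 4.07%, 0.828%, 1.69% and 1.59% of all 33469 windows for the E-box, E-prime box, D-box, ROR element and CRE. All letters searched except the CRE are of the kinds through which the loop is known, in mice, to act on such genes. That the matches found are of these kinds therefore follows largely from the choice of letters. Windows with a match that reads along the strand of the gene are shown. The strand is only a rule of display, and the first Nr1d1 window, matched on the opposite strand, is described below. Capitals mark the matched letters, no matches overlap, and each window ends 1 base before the start site.
Bmal1 (chr1:176766078-176766327, plus strand): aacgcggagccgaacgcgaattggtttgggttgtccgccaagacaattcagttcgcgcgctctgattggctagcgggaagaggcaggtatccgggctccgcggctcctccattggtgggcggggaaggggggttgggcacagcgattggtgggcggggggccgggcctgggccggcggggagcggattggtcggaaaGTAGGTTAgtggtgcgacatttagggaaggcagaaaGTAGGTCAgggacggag
Per2 (chr9:99496994-99497243, minus strand): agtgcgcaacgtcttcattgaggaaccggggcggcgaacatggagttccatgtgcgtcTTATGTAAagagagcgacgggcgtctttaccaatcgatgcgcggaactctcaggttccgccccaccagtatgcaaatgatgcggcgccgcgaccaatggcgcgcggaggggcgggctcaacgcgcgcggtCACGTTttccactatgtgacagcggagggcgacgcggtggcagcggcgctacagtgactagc
Nr1d1, second window (chr10:84229455-84229704, minus strand): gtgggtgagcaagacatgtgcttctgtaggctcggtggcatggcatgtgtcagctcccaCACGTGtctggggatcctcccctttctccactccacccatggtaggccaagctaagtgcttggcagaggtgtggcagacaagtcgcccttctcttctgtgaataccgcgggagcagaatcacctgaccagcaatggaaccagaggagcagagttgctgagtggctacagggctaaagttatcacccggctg

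Bmal1 held 2 ROR elements, which began 53 and 17 bases before the start site and differ at the base that the motif leaves free. Per2 held a D-box 192 bases before its start site and an E-prime box 62 bases before it. The second window of Nr1d1 held an E-box 191 bases before the start site. Its first window held an E-prime box on the opposite strand, 174 bases before the start site. None of the letters searched was in the windows of Per1 and Dbp. The Per1 window and the second Nr1d1 window lie inside the span of their gene in RefSeq's gene table, so other start sites of these genes have other upstream sequence. A match describes letters in a window and is not a measure of binding.

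**Figure D1:**
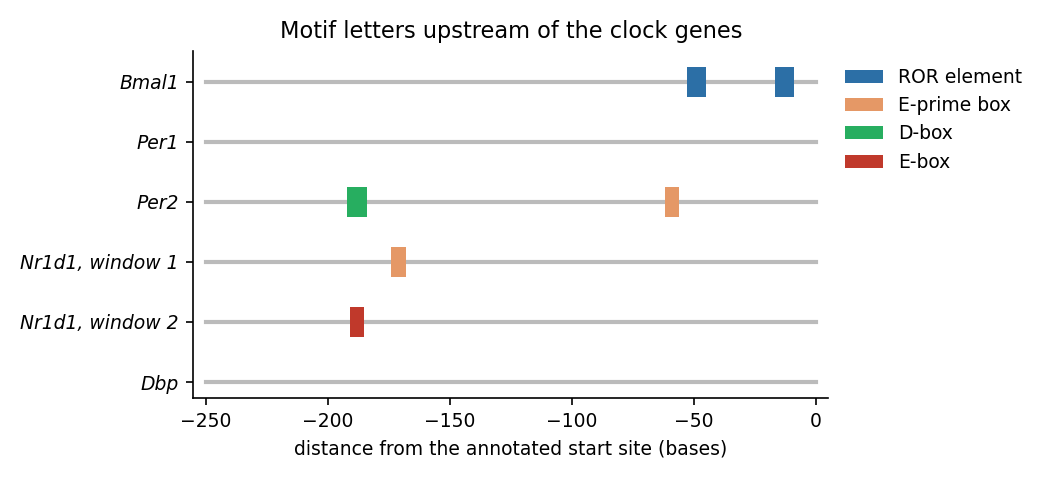
Positions of the matched letters (coloured boxes) along the 250 bases before each annotated start site, with distance from the start site in bases on the horizontal axis and 1 row per window. The 2 ROR elements of Bmal1 lie nearest to a start site, at 53 and 17 bases before it, and the rows of Per1 and Dbp hold no box.

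In these libraries the group means of the 5 clock transcripts differed by at most 16.3% between CFA and saline rats. Bmal1 RNA averaged lower in CFA rats, with a ratio of group means of 0.920, while Per2, Per1, Dbp and Nr1d1 averaged 16.3%, 9.74%, 9.53% and 1.82% higher. None of the 5 had an adjusted p under 0.05 (limma with Benjamini-Hochberg adjustment over 13566 genes), where 18.8% of all genes tested did. At an unadjusted p under 0.05 there was 1 gene, Per2, against 32.4% of genes tested. In a bulk tissue, fewer cells of a type and less RNA per cell cannot be told apart.

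Abundance is given as FPKM, the fragments of a gene divided by its length and by the library's total, so levels can be set side by side between genes. Dbp was the most abundant of the 5, followed by Bmal1, Nr1d1, Per1 and Per2, and this order held in 6 of 6 libraries. No neighbouring genes in the order overlapped within either group. The narrowest step was that from Bmal1 to Nr1d1 in FPKM, with ratios of 1.02 to 1.21 in CFA libraries and 1.17 to 1.28 in saline libraries. In CFA replicate 1 they stood at 6.45 and 6.34 FPKM, where counting alone gives relative errors of 3.53% and 3.47%. The order of Bmal1 and Nr1d1 is therefore not settled in that library. All 5 were genes of middle abundance: 66.2% of genes tested had a lower mean FPKM than Dbp and 24.2% a lower one than Per2.

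Bmal1, the activator of the loop, was the one member with a lower mean in CFA rats. It stood at 6.45, 7.42 and 6.73 FPKM in CFA replicates 1, 2 and 3, against 7.53, 7.35 and 7.51 FPKM in saline replicates 1, 2 and 3. CFA replicate 2 lay among the saline libraries, so the groups overlapped, while CFA replicates 1 and 3 lay below all saline libraries. The means were 6.86 ± 0.499 FPKM in CFA and 7.46 ± 0.0982 FPKM in saline (SD, n = 3 each). The log2 change of FPKM + 1 was -0.11 (SE 0.054, 95% interval -0.23 to 0.018, limma adjusted p = 0.216). Without CFA replicate 2 the log2 change was -0.16 (limma adjusted p = 0.0728), and without CFA replicate 1 it was -0.069 (limma adjusted p = 0.461).

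Per1 and Per2 encode repressors of the loop, and both genes are also known to be switched on quickly by signals from outside the clock. Per2 had the highest relative difference of the 5, at 3.16, 3.31 and 3.65 FPKM in CFA replicates 1, 2 and 3 and 2.89, 2.87 and 2.94 FPKM in saline replicates 1, 2 and 3. All CFA libraries lay above all saline libraries, and the CFA libraries were spread more widely. The means were 3.37 ± 0.248 FPKM in CFA and 2.90 ± 0.0377 FPKM in saline (SD, n = 3 each). The log2 change of Per2 was 0.16 (SE 0.062, 95% interval 0.019 to 0.31, unadjusted p = 0.0317, limma adjusted p = 0.115). With limma's voom on fragments worked out from the FPKM steps, Per2 passed the adjusted threshold (log2 change 0.21, adjusted p = 0.0385), where 25.7% of genes tested did. Voom does not add 1 to FPKM, so its log2 change is on another scale than the 0.16 above. With 0.01 instead of 1 added to FPKM, the log2 change of Per2 was also 0.21 (limma adjusted p = 0.111). At an unadjusted p under 0.05 voom had 2 of the 5, Per2 and Dbp, against 35.3% of genes tested. With quantile scaling, which gives every library the same distribution of values, the log2 change of Per2 was 0.094 (unadjusted p = 0.165, limma adjusted p = 0.327). Its unadjusted p was under 0.05 in 11 of 17 alternatives, and its adjusted p ran from 0.0385 to 0.327 over them. These alternatives reuse the same libraries and are not independent of each other. Leaving out each library gave log2 changes of Per2 from 0.12 to 0.20. The lowest was without CFA replicate 3 (limma unadjusted p = 0.111, limma adjusted p = 0.277).

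Per1 stood at 4.94, 4.58 and 4.90 FPKM in CFA replicates 1, 2 and 3 and at 4.45, 4.42 and 4.27 FPKM in saline replicates 1, 2 and 3. The groups did not overlap, and CFA replicate 2 came nearest to the saline libraries. The means were 4.81 ± 0.200 FPKM in CFA and 4.38 ± 0.0960 FPKM in saline (SD, n = 3 each), with a log2 change of 0.11 (SE 0.051, 95% interval -0.0088 to 0.23, limma adjusted p = 0.184). With quantile scaling the log2 change of Per1 was 0.043 (limma adjusted p = 0.590).

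Nr1d1, whose product represses Bmal1, had nearly the same level in both groups. Its values were 6.34, 6.14 and 6.09 FPKM in CFA replicates 1, 2 and 3 and 6.10, 6.29 and 5.85 FPKM in saline replicates 1, 2 and 3, and the groups overlapped. The means were 6.19 ± 0.131 FPKM in CFA and 6.08 ± 0.220 FPKM in saline (SD, n = 3 each). The log2 change was 0.023 (SE 0.046, 95% interval -0.084 to 0.13, limma adjusted p = 0.783), and its sign turned with the scaling of the libraries, at -0.032 with quantile scaling. In RefSeq's gene table Nr1d1 overlaps Thra, a thyroid hormone receptor gene, and Per2 overlaps LOC134480412. The sources used here do not say that counting used strand, so fragments of these overlaps may have been given to either gene. No overlap was listed for Bmal1, Per1 and Dbp. The annotation release used for counting was not given in the sources used here, so its overlaps may differ from those listed.

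Dbp, an activator through D-boxes and an output of the loop, stood at 14.4, 13.5 and 13.3 FPKM in CFA replicates 1, 2 and 3. Its saline values were 13.2, 11.6 and 12.9 FPKM in replicates 1, 2 and 3. The groups did not overlap, but CFA replicate 3 and saline replicate 1 were close to each other, and saline replicate 2 lay well below the others. The means were 13.8 ± 0.560 FPKM in CFA and 12.6 ± 0.878 FPKM in saline (SD, n = 3 each), with a log2 change of 0.12 (SE 0.055, 95% interval -0.0034 to 0.25, limma adjusted p = 0.164). Without saline replicate 2 the log2 change of Dbp was 0.069 (limma adjusted p = 0.379).

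**Figure D2:**
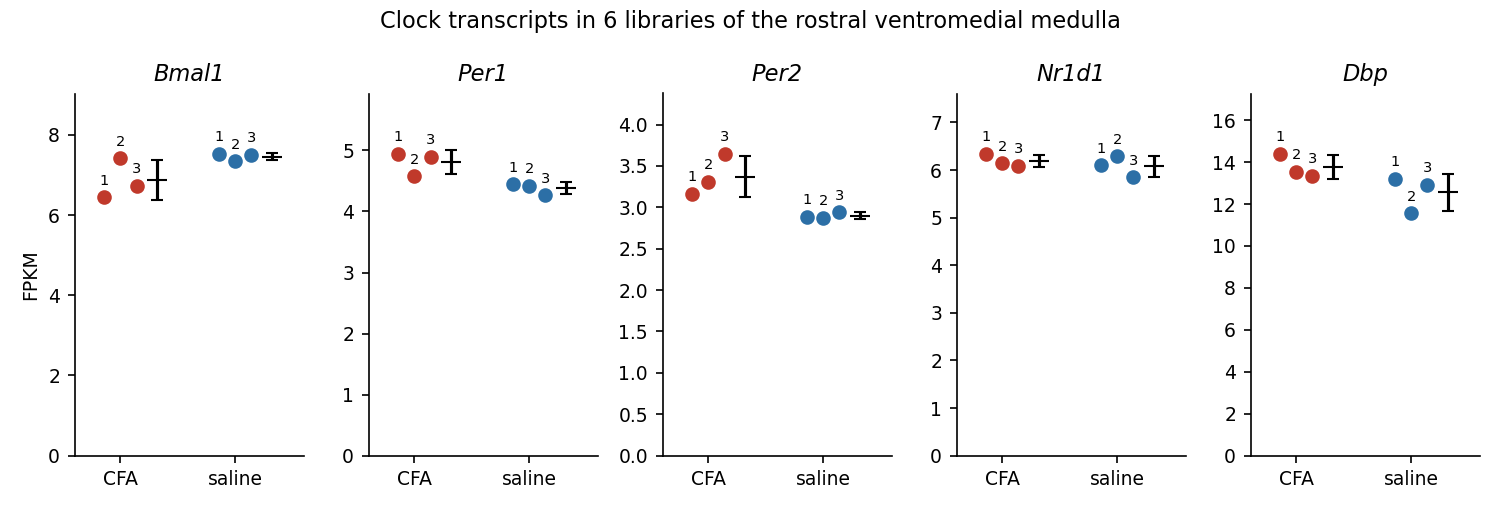
FPKM of each clock gene (1 panel per gene, vertical axis from 0) in CFA replicates (red) and saline replicates (blue), numbered by replicate, with mean and SD in black (n = 3 each). The CFA points of Per1, Per2 and Dbp all lie above the saline points, and those of Bmal1 and Nr1d1 overlap them.

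Groups that did not overlap were thus seen in 3 of 5 genes, Per1, Per2 and Dbp, each higher in CFA. The groups were likewise apart in 37.7% of all genes tested, and apart with CFA higher in 21.2%. An exact two-sided permutation test over the libraries gave p = 0.1 for each of these genes, the smallest it can give with 3 against 3, 0.2 for Bmal1 and 0.5 for Nr1d1. The 95% intervals of the 5 changes together ran from a 0.851-fold to a 1.24-fold level of FPKM + 1 in CFA relative to saline. The median log2 change was 0.11 over the 5 genes and 0.012 over all genes tested. In size, the change of Per2 was larger than that of 77.0% of genes tested, and the change of Nr1d1 was larger than that of 15.2%. For Dbp, Per1 and Bmal1 these shares were 66.5%, 61.5% and 60.55%.

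**Figure D3:**
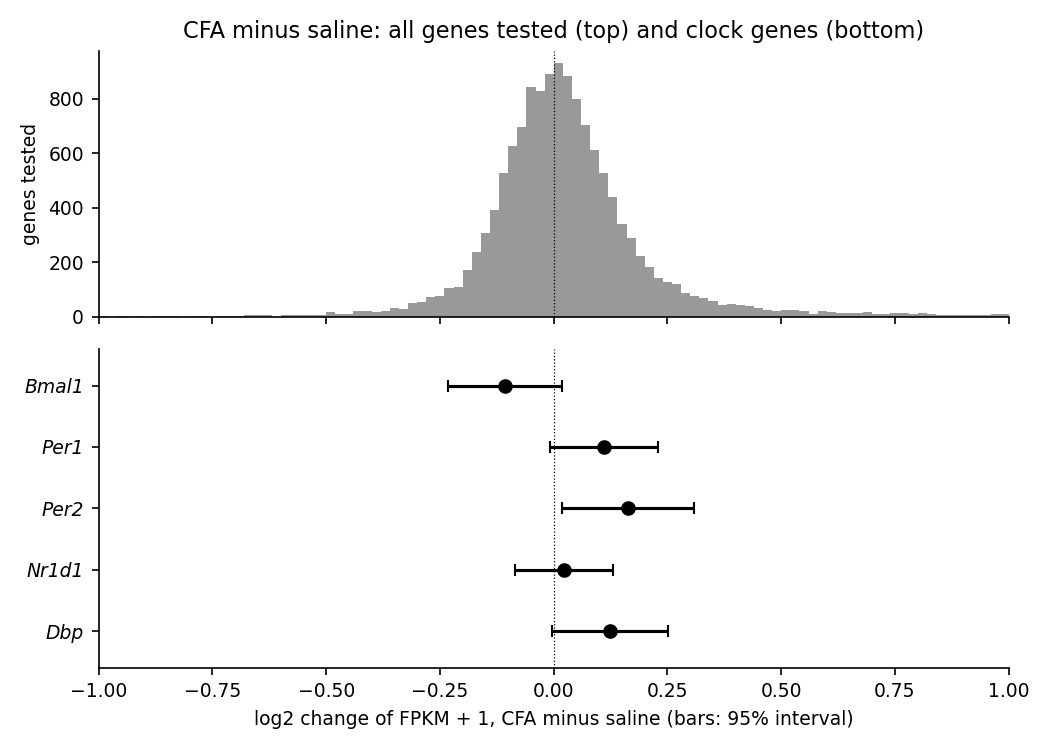
Top, number of genes tested at each log2 change of FPKM + 1 (CFA minus saline), without the 192 genes beyond 1 in either direction. Bottom, the log2 change of each clock gene (point) with its 95% interval from limma (bar). The 5 points lie within the bulk of genes, between -0.11 and 0.16, and only the interval of Per2 leaves out 0.

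Fragments worked out from the FPKM steps give the counting behind these values. The libraries held 27534174 to 44977905 fragments, and a clock gene had 509 to 1698 of them in a library. Counting alone then gives a relative error of 2.43% to 4.43%. The coefficient of variation between libraries of a group ran from 1.30% to 7.35% over the 5 genes. For Per2 it was 7.35% in CFA and 1.30% in saline, and for Bmal1 7.26% in CFA and 1.32% in saline. The saline values of both genes were thus closer to each other than the counting errors of those libraries, 3.63% to 4.16% for Per2 and 3.01% to 3.49% for Bmal1. The SE from limma, which borrows the spread of other genes, does not rest on these narrow groups alone.

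Each transcript was also set against Bmal1 within its own library, a ratio that a single scaling factor per library does not move. Bmal1 had a lower mean in CFA, so each ratio adds that difference to the difference of the other transcript. The log2 ratio of Per2 to Bmal1 was -1.03, -1.17 and -0.88 in CFA replicates 1, 2 and 3, against -1.38, -1.36 and -1.35 in saline replicates 1, 2 and 3. The log2 ratio of Per1 to Bmal1 was -0.38, -0.70 and -0.46 in CFA replicates 1, 2 and 3, against -0.76, -0.73 and -0.81 in saline replicates 1, 2 and 3. For Dbp to Bmal1 it was 1.16, 0.87 and 0.99 in CFA replicates 1, 2 and 3, against 0.81, 0.65 and 0.78 in saline replicates 1, 2 and 3. All CFA libraries were above all saline libraries in these ratios, and CFA replicate 2, the CFA library with the highest Bmal1, was the CFA library nearest to saline in each. A high Bmal1 value lowers all of these ratios at once. By FPKM alone, the CFA library nearest to saline was replicate 2 for Per1, replicate 1 for Per2 and replicate 3 for Dbp.

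For Nr1d1 to Bmal1 the log2 ratio was -0.024, -0.27 and -0.14 in CFA replicates 1, 2 and 3 and -0.30, -0.22 and -0.36 in saline replicates 1, 2 and 3, and the groups overlapped. The mean log2 ratio to Bmal1 was higher in CFA by 0.34 for Per2, 0.26 for Per1, 0.26 for Dbp and 0.15 for Nr1d1. These ratios share the values of Bmal1 and are not independent of each other, and no test is given for them. Of 13540 other genes with values above 0 in all libraries, 34.1% also had a ratio to Bmal1 that was higher in all CFA than in all saline libraries.

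**Figure D4:**
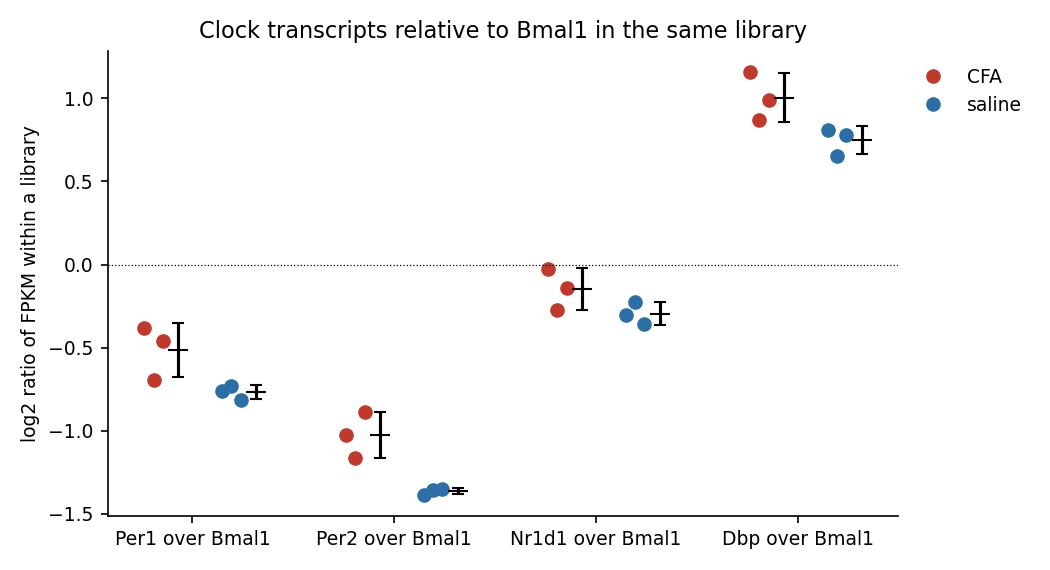
Log2 ratio of each transcript's FPKM to that of Bmal1 in the same library (vertical axis), for CFA (red) and saline (blue) replicates in the order 1, 2, 3, with mean and SD in black (n = 3 each). The CFA points of Per1, Per2 and Dbp lie above all saline points, and those of Nr1d1 overlap them.

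**Figure D5:**
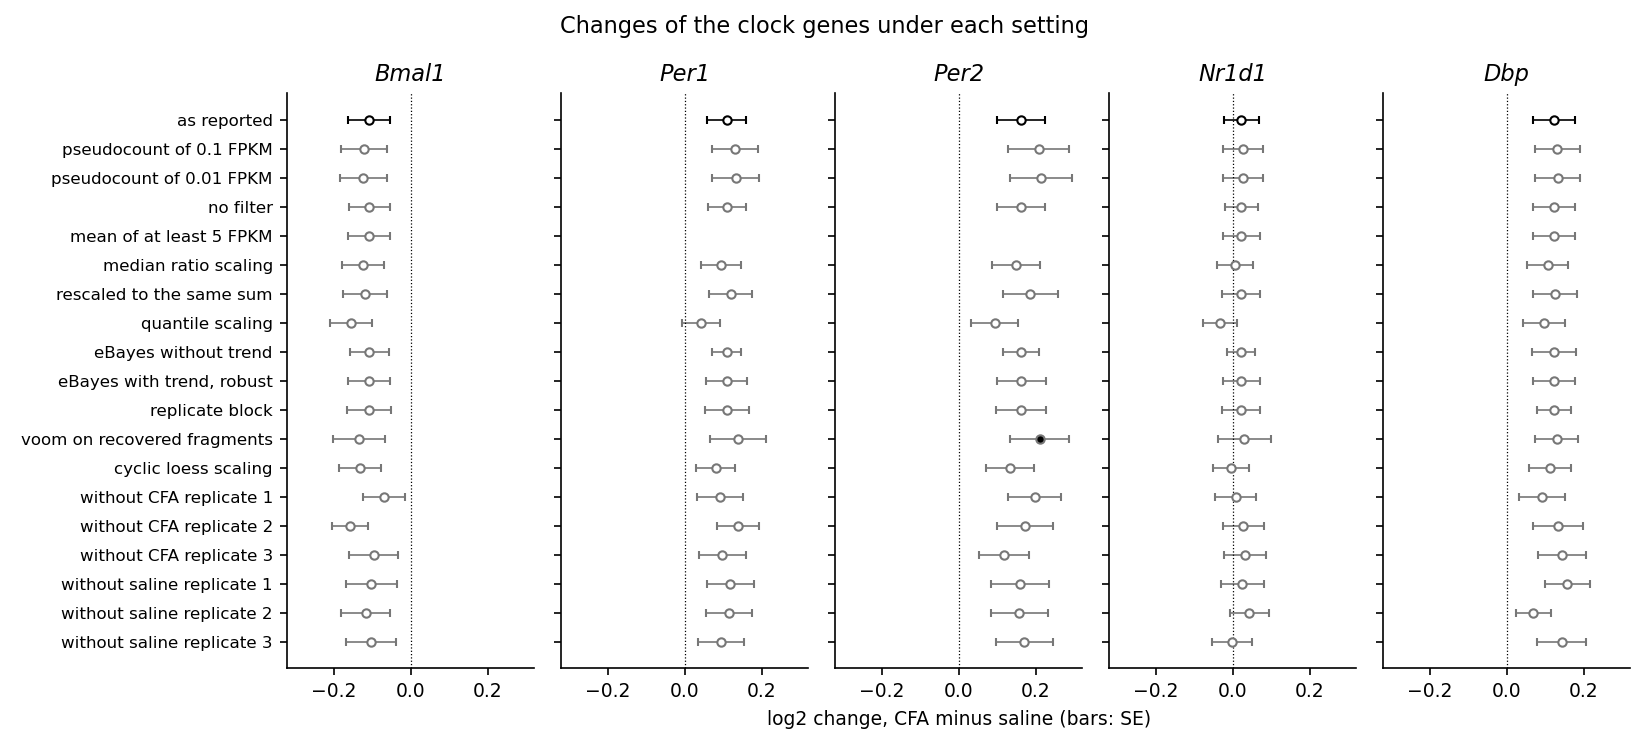
Log2 change of each clock gene (CFA minus saline) with its SE under each setting of the processing, the reported setting on top and filled points for adjusted p under 0.05. Bmal1 stayed below 0 and Per1, Per2 and Dbp above 0 in all settings shown, Nr1d1 lay on both sides, and the filled point is Per2 with voom. Settings that change only the filter, the variance moderation or the replicate block cannot move a point, only its SE. A changed pseudocount or leaving out a library cannot turn the sign of Per1, Per2 or Dbp, whose groups did not overlap. Per1 and Per2 have no point at a mean of at least 5 FPKM, which they did not reach.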

How the data were processed

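The authors deposited FPKM values per gene for 6 libraries. The submitters' processing notes list build mRatBN7.2, DESeq2 1.30.1, StringTie 2, HISAT2 2 and fastp 0.21.0 without saying what each did. The counter and annotation release were not given in the sources used here. Per the labels' protocols, poly-A RNA was sequenced as paired ends. 0 of 22976 identifiers matched RefSeq's table, which lists no Ensembl identifiers. The names of the 5 genes came with their identifiers and were not checked further. Other clock genes, glucocorticoid-responsive and immediate early genes, markers of cell types and of the RVM, and the genes most like each member were to be found by symbol and are not analysed here. The members and lists were chosen with earlier results of these data known.

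The 13566 genes that averaged 1 FPKM or more were tested as log2(FPKM + 1) with limma 3.58.1 in R 4.3.3 (eBayes with trend), two-sided, CFA against saline, with Benjamini-Hochberg adjustment over all genes tested. Folds are on that scale, which understates changes of low genes. Ratios of means use FPKM. Fragments came from FPKM steps: 22974 genes were whole within 0.0001 in all 6 libraries, each with the smallest length that allows it. Intervals of counting cover counting error only. Pairs of libraries within a group differed by 2.94 to 3.24 times counting noise, so none was counted as a copy. The fit and the recovery were tested on simulated data. Python 3.11.15, numpy 2.4.6, pandas 2.3.3, scipy 1.17.1 and matplotlib 3.10.9 were used. Alternatives covered the pseudocount, filter, scaling, variance moderation, a block for the replicate number, leaving out each library, and voom. Named were the 5 members, each with all values.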

Additional observations from a re-analysis of the deposited data

How the results depend on the processing

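Bmal1 kept its direction in 18 of 18 alternatives (log2 change -0.16 to -0.069), Per1 in 17 of 17 (0.043 to 0.14), Per2 in 17 of 17 (0.094 to 0.21) and Dbp in 18 of 18 (0.069 to 0.16). Nr1d1 did in 15 of 18, and was reversed with quantile scaling (-0.032) and with cyclic loess scaling (-0.0035), which was added after seeing the data. Quantile scaling made the change of Bmal1 larger in size (-0.15, limma adjusted p = 0.0908) than with FPKM as given. It made those of Per1, Per2 and Dbp smaller (0.043, 0.094 and 0.097). The changed filters, the changed variance moderation and the replicate block cannot move a log2 change. Their kept directions were therefore fixed in advance and add nothing to these counts. The groups of Per1, Per2 and Dbp did not overlap, so a changed pseudocount or leaving out a library could not turn their direction. For these genes only the changed scalings and voom could have turned it. Leaving out each library gave -0.00077 to 0.044 for Nr1d1, the negative value without saline replicate 3. No clock gene passed the adjusted threshold (limma) in any alternative except Per2 with voom on recovered fragments (0.21), which made the count 1 of 5 instead of 0. The cause was not tested. Of all genes tested, 2545 passed, and 1743 to 3481 in the alternatives. Of these, 60.1% were higher in CFA with FPKM as given, 50.9% with median ratio scaling and 46.3% with quantile scaling. With a block for the replicate number, 2086 genes and none of the 5 passed (Per2 log2 change 0.16, limma adjusted p = 0.157). Deviations from the group means were not shared between libraries of a number (correlations across genes of -0.021 to 0.023), and 2 of 3 saline libraries correlated best with their own number. The lists found by symbol were not run under any alternative. Depth leaves the 5 genes a counting error of 2.43% to 4.43% in a library.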
